A study of Mus musculus with 8 samples.

Results

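The STAT and IRF transcription factors carry signals of interferons and other cytokines to the genome. Messenger RNA of 9 of them (Stat2, Stat3, Stat6, Irf1, Irf2, Irf3, Irf5, Irf7 and Irf9) was examined, taken by gene symbol from the 21879 genes of the deposited table. All 9 had enough counts to be tested. The cells were TCMK-1, a mouse kidney epithelial line. One group carried a control shRNA and the other an shRNA against smgGDS, the product of Rap1gds1, which assists small GTPases. Both groups received 20 µM cisplatin, a DNA-crosslinking drug that injures kidney tubules, and untreated cells were not analysed here. Each group had 4 libraries. Nothing in the labels ties them to separate cultures or clones, so p-values measure the spread between these libraries, which may be technical.

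As background, type I interferons act through a pair of receptor chains and the kinases JAK1 and TYK2, which phosphorylate STAT2 among others. STAT2 acts with IRF9 in a complex that switches on antiviral genes, IRF7 among them. IRF3, IRF5 and IRF7 act earlier: once phosphorylated downstream of nucleic acid sensors or Toll-like receptors, they induce interferon genes. IRF1 is induced after interferon gamma, and IRF2 competes with it for the same DNA element. STAT3 serves IL-6 family cytokines, and STAT6 serves IL-4 and IL-13. These proteins are regulated largely by phosphorylation and location in the cell, which RNA levels do not show.

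Libraries held 11560977 to 16059158 expected counts in the control and 12746051 to 14280962 in the knockdown. Rap1gds1 went from 16.2 ± 0.80 to 2.63 ± 0.19 CPM (SD, n = 4 each), where CPM is a count relative to the TMM-scaled size of its library, so the libraries matched their labels. Markers of the labelled cell type were mixed: of 13 tubule epithelial markers 6 were tested, and Hnf4a and Umod had no count. In controls Aqp1 was at 155 CPM and Pax8 at 8.97 CPM, but Cdh1 at 0.148 CPM. Among fibroblast markers Col1a1 was at 281 CPM, but Pdgfra at 0.308 CPM and Lum at 0.118 CPM. Leukocyte marker RNA was examined because Irf5 is best known from myeloid cells: Cd3e, Adgre1 and Tyrobp had no count, and Ptprc was at 0.0214 CPM in controls. The summed level of the 11 leukocyte markers was 131 to 140 CPM in controls and 112 to 124 CPM in the knockdown, most of it Cd14 and Cd68. The summed level of 6 fibroblast markers was 297 to 323 CPM in controls and 356 to 407 CPM in the knockdown, most of it Col1a1. All 4 tested fibroblast markers were higher, while Pdgfra went from 0.308 to 0.0994 CPM. That of the tubule markers was 164 to 179 and 141 to 147 CPM, most of it Aqp1 (means 155 and 127 CPM). Of the 6 tested tubule markers 1 was lower and 0 were higher, and Pax8 was at 8.97 and 9.33 CPM. The part of these cell types in the results was not tested, and in bulk RNA fewer cells of a type and less RNA per cell cannot be told apart.

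Irf7 dominated the family. On the authors' FPKM scale, which divides by gene length and so allows genes to be compared, it averaged 932 over the 8 libraries (868 to 1021), rank 110 among all genes. It made up 83.1% to 85.0% of the summed FPKM of the 9 genes in a library. Irf9 followed at 77.6 FPKM, 12-fold below, then Irf3, which encodes a trigger of interferon genes that acts once phosphorylated, at 32.3 FPKM. Stat2 (19.8 FPKM), Irf1 (18.0 FPKM) and Stat6 (14.1 FPKM) came next, and Irf5 averaged 10.2 FPKM. Stat3 was low at 5.21 FPKM, and Irf2 was lowest at 0.56 FPKM, 9.26-fold below Stat3. In this order the ranges of Stat2 and Irf1, and of Irf1 and Stat6, overlapped between libraries, and the other neighbours were separated in all 8.

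**Figure D1:**
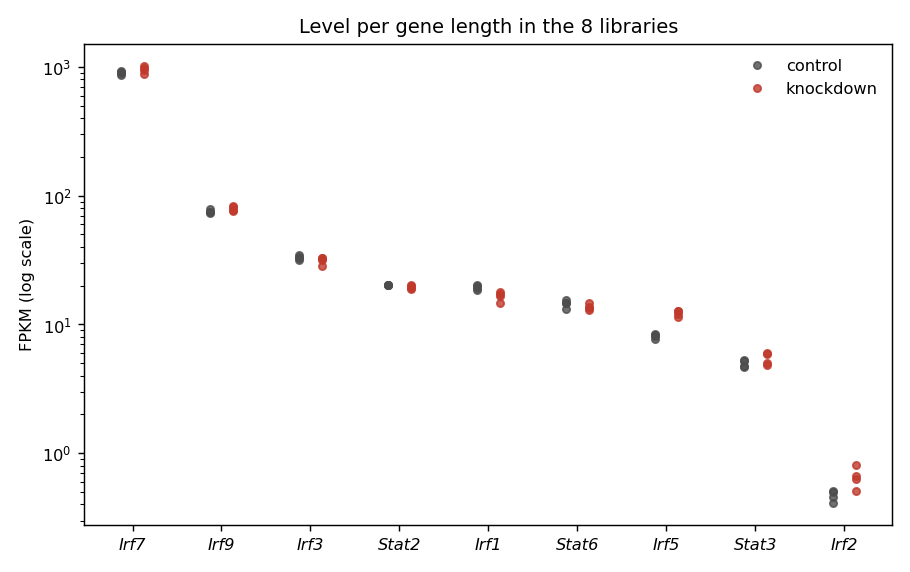
Level of each transcript as the authors' FPKM (log axis), 1 point per library, controls in grey and knockdown in red, ordered by the mean over 8 libraries. Irf7, at 868 to 1021 FPKM, lies far above the other 8 genes, and Irf2 lies lowest.

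In the knockdown, Irf5, Irf7 and Irf9 rose, and no member passed the test downward. The rise of Irf5 was 1.58-fold, and those of Irf7 and Irf9 were 1.10-fold each. Of all 11576 genes tested, 11.1% rose, 9.15% fell and 20.2% passed in either direction (edgeR quasi-likelihood test, adjusted p under 0.05 over all genes). The 0 lower members had 1 counterpart at an unadjusted p under 0.05, Irf1, and DESeq2 and limma voom also called 0. With counts scaled by library total alone, 766 genes were higher and 1951 lower instead of 1285 and 1059. The median change of all genes was then -0.06 on the log2 scale, and 1 member, Irf5, was higher and 1, Irf1, was lower. Values did not overlap between groups for 4 of 9 members (Irf1, Irf2, Irf5 and Irf9), against 21.1% of all genes tested.

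**Figure D2:**
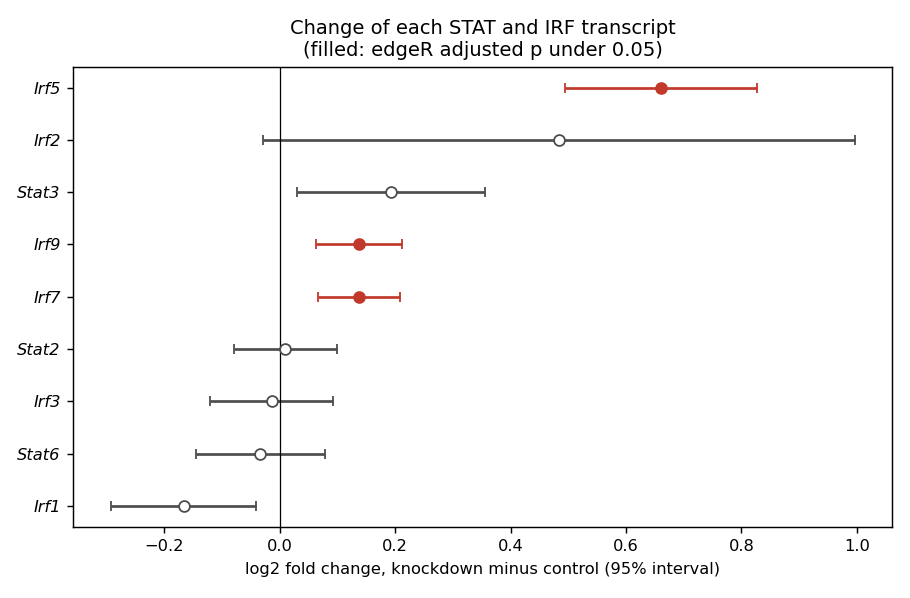
Log2 fold change of each transcript, knockdown minus control, with its 95% interval from edgeR, and filled points where the adjusted p was under 0.05. Irf5 lies at 0.66 with Irf7 and Irf9 at 0.14, and the intervals of Stat2, Irf2, Irf3 and Stat6 span 0.

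Irf5, an activator of inflammatory cytokine and interferon genes best known from myeloid cells, had the largest change. Its levels were 15.5, 16.6, 17.6 and 15.5 CPM in the 4 controls, listed by replicate number here and for each gene, and 27.0, 25.5, 23.3 and 27.2 CPM in the 4 knockdown libraries. Every knockdown library lay above every control. On the log2 scale, always as knockdown minus control, the difference was 0.66 (SE 0.08, 95% interval 0.49 to 0.83, edgeR adjusted p = 6.97e-08). The change ranked 80 among all genes by adjusted p. On the FPKM scale Irf5 went from 8.14 ± 0.34 to 12.2 ± 0.65 (SD, n = 4 each). Irf5 (ncbi_27056) lies at chr6:29526130-29541869 of GRCm38.p6, and its annotated span shares 1045 bases with the nuclear import gene Tnpo3 on the opposite strand. Both genes have expected counts with fractions. Tnpo3 also rose, by 0.20 (SE 0.05, edgeR adjusted p = 0.00399), and its part in the Irf5 value was not tested.

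Irf7, the factor that amplifies interferon production and is itself interferon-induced, was at 1584, 1513, 1636 and 1662 CPM in the controls. Under knockdown it was at 1798, 1860, 1627 and 1744 CPM. Knockdown replicate 3 lay inside the control range and the other 3 lay above it. This made a log2 fold change of 0.14 (SE 0.03, 95% interval 0.07 to 0.21, edgeR adjusted p = 0.00536). The call was lost with scaling by library total (0.08, adjusted p = 0.0918), on FPKM with a pseudocount of 0.5 (0.08, limma adjusted p = 0.152) and with a replicate block (0.14, edgeR adjusted p = 0.187), the highest over the alternatives that kept all libraries, of which the lowest was 9.53e-06. Irf7 (ncbi_54123) lies at chr7:141263183-141266499 on the minus strand, with 45 bases shared in GENCODE M21 with Phrf1, which fell by 0.22 on the log2 scale.

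Irf9, the DNA-binding partner of STAT2, had 178, 172, 180 and 189 CPM in the controls and 202, 190, 190 and 206 CPM under knockdown. The groups were separate, although the highest control and the lowest knockdown libraries differed by little. Irf9 had a log2 fold change of 0.14 (SE 0.04, 95% interval 0.06 to 0.21, edgeR adjusted p = 0.00547). It too was not called with library totals (0.08, adjusted p = 0.0965) or on FPKM with a pseudocount of 0.5 (0.08, limma adjusted p = 0.157), within 0.00101 to 0.157 over the same alternatives. Irf9 (ncbi_16391) lies at chr14:55603985-55610030. GENCODE M21 gives it 123 bases in common with Rnf31, a ubiquitin ligase gene on the same strand, which rose by 0.22 (SE 0.05, edgeR adjusted p = 0.00242).

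Stat2, whose protein joins IRF9 in that complex, did not pass the test. It had 87.2, 85.5, 87.1 and 86.8 CPM in the controls and 85.8, 88.4, 83.6 and 91.1 CPM under knockdown. The knockdown libraries spread on both sides of the controls. Stat2 had a log2 fold change of 0.01 (SE 0.04, edgeR adjusted p = 0.922), and the 95% interval of the ratio was 0.946 to 1.07. The estimate was -0.05 with library totals and on FPKM. Stat2 (ncbi_20847) lies at chr10:128270498-128292853.

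Irf3 was at 59.3, 62.8, 56.5 and 60.5 CPM in the controls and at 59.9, 60.9, 54.2 and 61.7 CPM under knockdown. The groups overlapped almost fully, with a log2 fold change of -0.01 (SE 0.05, edgeR adjusted p = 0.891) and a ratio between 0.92 and 1.07 (95% interval). Irf3 (ncbi_54131, chr7:44997648-45002848) shares 1065 bases with Bcl2l12 on the other strand. Stat6 was similar, at 54.5, 56.7, 55.6 and 49.96 CPM in the controls and 57.2, 49.7, 52.1 and 53.0 CPM under knockdown. Stat6 differed by -0.03 on the log2 scale (SE 0.06, edgeR adjusted p = 0.726), and its ratio lay between 0.904 and 1.06. Stat6 (ncbi_20852) lies at chr10:127642955-127660987 and shares 40 bases with Nab2 on the opposite strand.

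Irf1, the rapidly induced activator of antigen presentation genes, was the member nearest to a fall. The controls had 41.4, 42.0, 38.9 and 40.3 CPM and the knockdown libraries had 37.6, 38.3, 36.5 and 32.4 CPM. All knockdown libraries lay below all controls, with knockdown replicate 4 lowest. The log2 fold change was -0.17 (SE 0.06, 95% interval -0.29 to -0.04, edgeR adjusted p = 0.0526). It passed with library totals (-0.22, adjusted p = 0.00887) and on FPKM with a pseudocount of 0.5 (-0.22, limma adjusted p = 0.0264), within 0.00887 to 0.0847 over the alternatives that kept all libraries. Without knockdown replicate 4 it was -0.12 (edgeR adjusted p = 0.215), within 0.0387 to 0.215 when each library was left out, and it passed without control replicate 3 or knockdown replicate 2. Irf1 (ncbi_16362) lies at chr11:53770014-53778374 and shares 907 bases with Gm17334 on the opposite strand.

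Stat3 and Irf2 leaned upward without passing. Stat3 had 20.6, 20.7, 23.5 and 23.3 CPM in the controls and 22.4, 27.3, 27.3 and 23.4 CPM under knockdown. Knockdown replicates 2 and 3 were above all controls, and the other 2 lay among them. The log2 fold change was 0.19 (SE 0.08, edgeR adjusted p = 0.0881), and Stat3 passed when knockdown replicate 1 was left out (0.24, edgeR adjusted p = 0.0425, within 0.0425 to 0.255 over left-out libraries). Irf2 rested on few counts, 26, 25, 21 and 16 in the controls and 24, 32, 26 and 26 under knockdown. As CPM the groups did not overlap (1.37 to 1.6 against 1.71 to 2.51). The log2 fold change of 0.48 was imprecise (SE 0.25, edgeR adjusted p = 0.186), and a difference was not detectable at this depth. Stat3 (ncbi_20848) lies at chr11:100886806-100939594 and shares 72 bases with a gene on the opposite strand. Irf2 (ncbi_16363) lies at chr8:46739745-46847458. It shares 1723 bases with Gm45479, 877 with Gm45481 and 433 with Gm31172, all on the opposite strand.

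**Figure D3:**
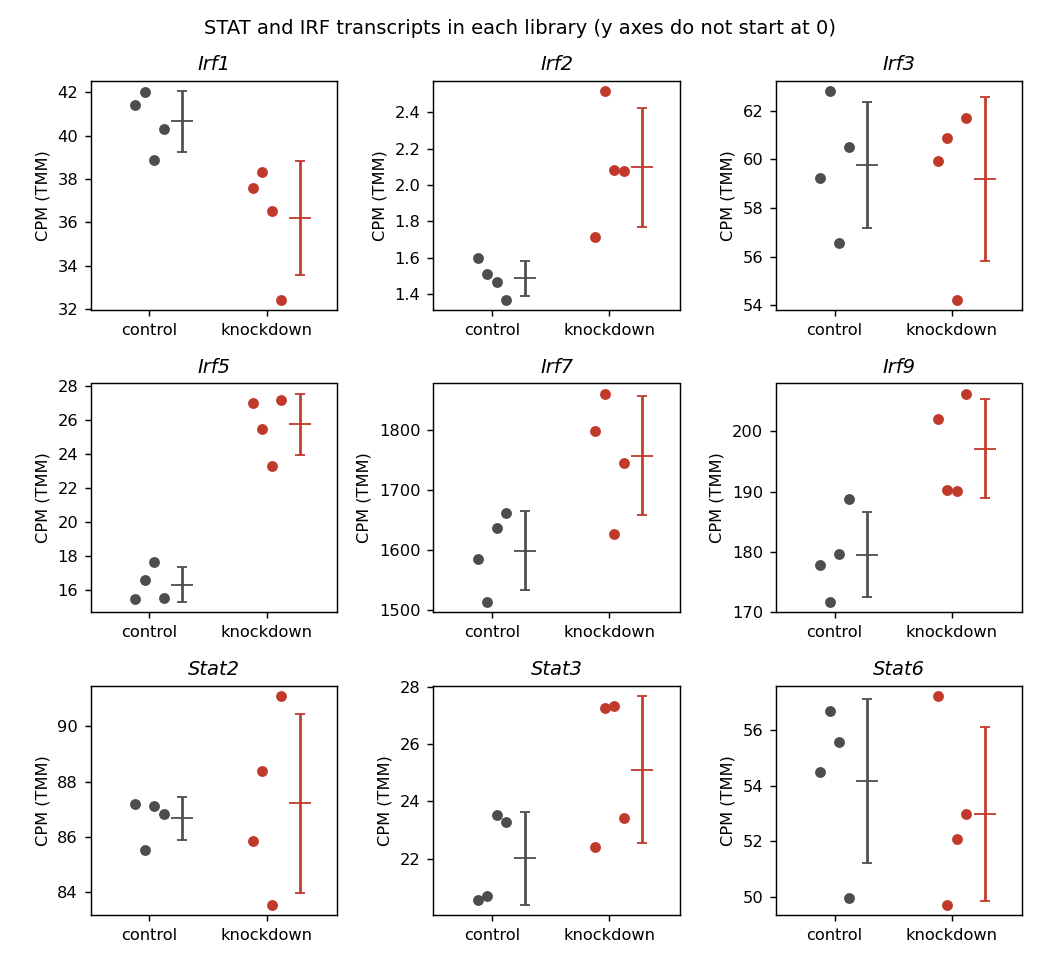
CPM of each transcript in every library (points), with the mean and SD of 4 libraries beside them, and y axes that differ between panels and do not start at 0. Irf5 shows a wide gap between groups (15.5 to 17.6 against 23.3 to 27.2 CPM), while Stat2, Irf3 and Stat6 overlap.

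STAT and IRF proteins bind known DNA elements, so the promoters of the members were searched for them. The matching stretches are printed for the 3 genes that held one before the start site. The RefSeq promoter table (GRCm38.p6) held 11 windows for the 9 members, each from 250 bases before to 50 after a start. It was searched on both strands for the STAT element TTCNNNGAA, the wider STAT6 spacing TTCNNNNGAA and the interferon response element GAAANNGAAA. The matches printed do not overlap each other. Capitals mark the match: the STAT element in Irf1 (chr11:53769894-53769962, plus strand), and interferon response elements in Stat2 (chr10:128270248-128270315, plus strand, matched as its reverse complement) and Irf2 (chr8:46739495-46739543, plus strand).
Irf1: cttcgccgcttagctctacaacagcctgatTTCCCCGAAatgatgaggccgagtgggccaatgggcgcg
Stat2: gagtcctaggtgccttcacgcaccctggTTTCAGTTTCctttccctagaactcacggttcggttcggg
Irf2: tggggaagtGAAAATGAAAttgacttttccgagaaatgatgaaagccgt

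The first base of the match lay at position -90 from the start in Irf1, at position -222 in Stat2 and at position -241 in Irf2. Irf2 also held the STAT element at position -224, and Stat2 held the STAT6 spacing at position -210. Irf9 held the STAT6 spacing at position 2, after the start. The interferon response element was thus in 2 of 9 members and in 3.99% of the 27025 genes of the table. The STAT element was in 2 of 9 members and 9.55% of genes, and the STAT6 spacing in 2 of 9 and 8.01%. None of the 3 motifs was in the windows of Irf3, Irf5, Irf7, Stat3 or Stat6, which says only that these letters are absent there. None of Irf1, Stat2 and Irf2 passed the test.

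Among other genes of the families, Irf8, a myeloid factor, was at 2.21 and 1.69 CPM and did not pass. Stat4 had no count in any library and Irf4 at most 7.

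Genes that signal to the members were read by role. The lists below share Il4ra, Cish, Socs1, Socs3 and Usp18, so their counts are not separate results. Of 18 interferon and cytokine ligands 5 were tested. Ifnb1 had at most 9 counts in a library and Ifng, Ifnl2 and Ifnl3 had 0, which with a floor of 3 counts allows up to 0.257 CPM, for counting error only. Lif, an IL-6 family cytokine that signals through STAT3, went down from 77.8 ± 4.97 to 62.6 ± 2.27 CPM (SD, n = 4 each), a log2 fold change of -0.32 (SE 0.05, edgeR adjusted p = 8.54e-06). Clcf1 (0.10) and Il6 (0.24) did not pass.

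Among 16 tested receptors and JAK kinases 3 rose and 2 fell, with a median log2 fold change of -0.03 beside -0.0033 over all genes. Over all genes tested, 11.1% rose and 9.15% fell. The kinase Jak1 rose by 0.28 (SE 0.05, edgeR adjusted p = 4.83e-05), with counts that are not whole. The IL-13 receptor chain Il13ra1 rose by 0.28 (SE 0.05), and its partner chain Il4ra, which activates STAT6, dropped by 0.38 (SE 0.09). The interferon receptor chain Ifnar2 rose by 0.15, and the oncostatin M receptor Osmr fell by 0.32 on the log2 scale. A single receptor gene was lower with DESeq2, on FPKM, and without any 1 of control replicates 2 and 3 and knockdown replicates 1 and 2. Of the 12 activators of IRF3, IRF5 and IRF7, none passed in edgeR, DESeq2 or limma voom. The count of those with an unadjusted p below 0.05 was 8 in edgeR, 7 of them lower, against 32.0% of all genes tested in either direction. Estimates were below 0 for 11 of the 12, with a median of -0.16. The adaptors Tmem173 (STING, -0.16), Mavs (-0.18) and Ticam1 (-0.25) had the smallest p-values. With library totals 7 of the 12 were called lower, and 3 on FPKM. One was called lower without control replicate 2 or either of knockdown replicates 1 and 2.

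Genes listed as inhibitors split evenly, 5 higher and 5 lower of 23 tested (median -0.07). Of all genes tested, 11.1% were higher and 9.15% lower. The protease and receptor inhibitor Usp18, itself an interferon-induced gene, went up from 591 ± 21.9 to 702 ± 15.4 CPM (SD, n = 4 each), a log2 fold change of 0.25 (SE 0.03, edgeR adjusted p = 2.07e-08). Nmi, which binds STAT and IRF proteins, rose by 0.61 (SE 0.11). Irf2bpl, of the IRF2-binding protein family, dropped by 0.32 (SE 0.05). The count of higher inhibitors was 3 with DESeq2, with library totals and on FPKM, and also when control replicate 1, control replicate 3 or the knockdown library with number 4 was left out. Leaving out control replicate 1 gave 3 lower.

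Target lists were named by branch, and which factor acted on their genes was not tested. They are read beside 11.1% higher and 9.15% lower of all genes tested. Of 23 tested type I interferon targets of STAT2 and IRF9, 19 rose and none fell, with 4 more positive but not called and a median of 0.29. Ifi44 rose by 0.37 (SE 0.04), the ubiquitin-like Isg15 by 0.30 (SE 0.03) and the virus-tethering Bst2 by 0.29 (SE 0.03). The largest edgeR adjusted p of these was 8.92e-09. Of 21 tested targets of interferon gamma and IRF1, 13 rose and none fell (median 0.29), among them Gbp2 (0.54, SE 0.05) and the immunoproteasome genes Psmb10 (0.45, SE 0.06) and Psmb8 (0.36, SE 0.04). DESeq2 and limma voom also called 0 lower in both lists, and at an unadjusted p below 0.05 edgeR had 0 lower in the first and 1 in the second. With whole counts only, 8 of the second list rose, and 1 fell with library totals or without knockdown replicate 2. Both lists were chosen with the interferon response of these libraries already known and are not independent evidence of its direction.

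STAT3 targets went both ways, 4 up and 4 down of 19 tested (median -0.06), beside 11.1% up and 9.15% down of all genes tested. The kinase Pim3 (0.23, SE 0.03) and Myc (0.21, SE 0.03) rose, and the protease inhibitor Timp1 fell by 0.14 on the log2 scale (SE 0.03). Only 2 rose with library totals, on FPKM and with whole counts only. Pim3, whose counts are in part fractional, is absent from that last fit. On FPKM 6 fell, and 2 fell when control replicate 1 was left out, or either of knockdown replicates 1 and 4. STAT6 targets were poorly measured, with 8 of 15 tested, 3 lower and none higher (median -0.10). They were Il4ra, counted also among the receptors and STAT3 targets, Cish, counted also among the inhibitors, and the low-affinity IgE receptor Fcer2a. Cish decreased by 0.34 (SE 0.08). Fcer2a dropped by 0.88 (SE 0.28), stood at 2.14 CPM in controls and has counts that are not whole. The call of Fcer2a was lost when any 1 of control replicates 1 and 3 and knockdown replicate 2 was left out (edgeR adjusted p up to 0.0902). DESeq2 and limma voom called 0 higher as well, and 0 STAT6 targets with a positive estimate had an unadjusted p under 0.05. The ligands Il4 and Il13 had at most 1 count in a library.

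**Figure D4:**
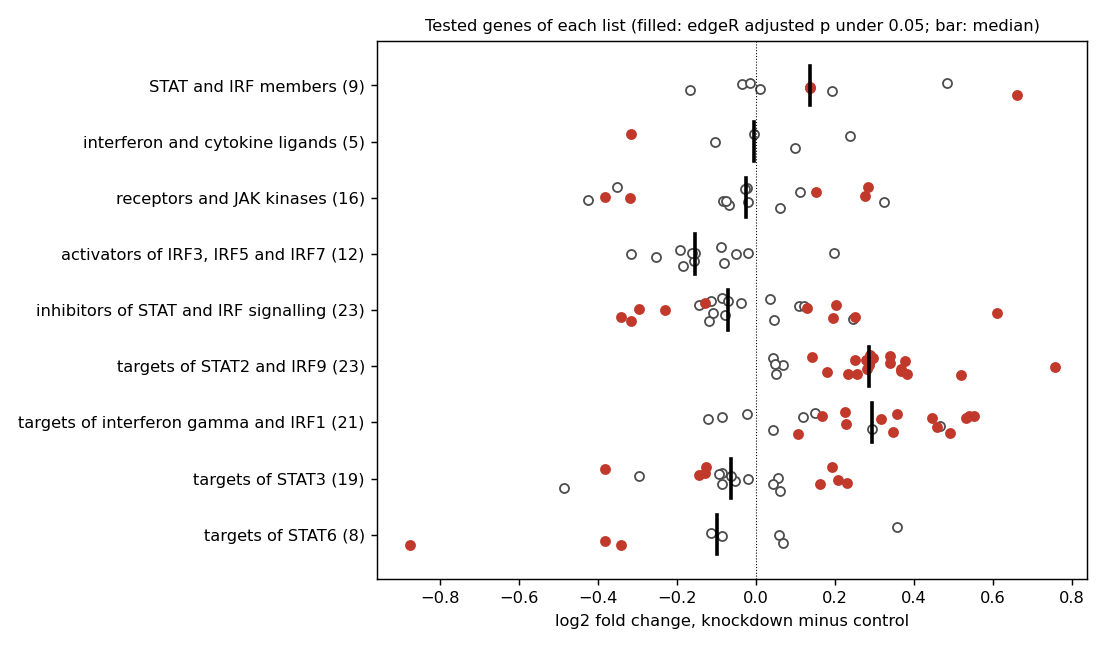
Log2 fold change of every tested gene in each list (number tested in brackets), filled where the edgeR adjusted p was under 0.05, with a bar at the median. The lists of STAT2 and IRF9 targets and of interferon gamma and IRF1 targets lie mostly right of 0, with medians of 0.29, and the other lists lie around or left of 0, apart from the 9 members at 0.14.

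The genes nearest to Irf5 in pattern over the 8 libraries, by root mean square distance of standardised log2 CPM, were Dnaja1 (0.134), Hnrnpll (0.147) and Rfc5 (0.161). They encode a chaperone cofactor, an RNA-binding protein and a replication clamp loader subunit. Their log2 fold changes were 0.19, 0.23 and 0.16, all called, although Rfc5 was not with library totals (edgeR adjusted p = 0.0818) or on FPKM. Nearest to Irf7 were Ly6a (0.176), a surface antigen gene, Fhl3 (0.239) and Bre (0.241), with log2 fold changes of 0.14, 0.07 and 0.47, of which that of Fhl3 did not pass. Ly6a lost its call with library totals, on FPKM and when any 1 of control replicates 1 and 2 and knockdown replicates 1, 2 and 4 was left out (edgeR adjusted p up to 0.109). Bre was not called when either library with number 2 was left out (edgeR adjusted p up to 0.0733). Standardising removes the size of a change. The genes were picked by likeness to Irf5 or Irf7 over the same libraries, so their calls are not separate results.

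**Figure D5:**
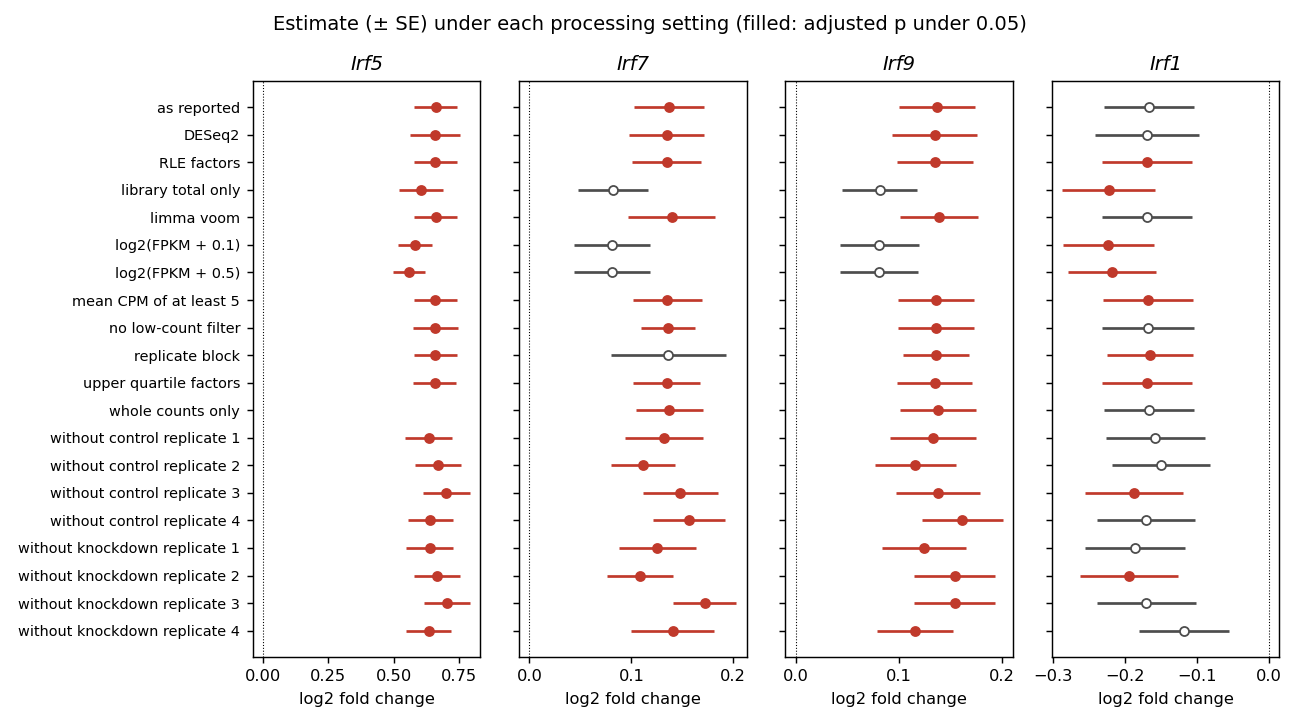
Log2 fold change (± SE) of Irf5, Irf7, Irf9 and Irf1 under each processing setting, filled where the adjusted p was under 0.05. Irf5 passes in every setting that could test it, Irf7 and Irf9 lose their call with library totals and on FPKM (Irf7 also with a replicate term), and Irf1 gains one in these and some other settings.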

How the data were processed

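Values are expected counts for each gene in each library, deposited as such per the file headers, with FPKM that the authors computed beside them. The submitters' processing notes name, without roles, RSEM, edgeR, DESeq2, StringTie 1.3.1, HISAT2 2.4, Bowtie2 2.2.8 and fastp 0.18.0, with build GRCm38.p6. No source used here gives the strand setting, so overlapping genes cannot be told apart. After rounding, the test was that of edgeR 4.0.16 (R 4.3.3) with TMM factors, default expression filter, robust quasi-likelihood fit, two-sided F-test on group, Benjamini-Hochberg adjustment over 11576 genes, threshold 0.05. SE follows from the F statistic. CPM are expected counts over TMM-scaled library sizes. The procedure was also run on simulated libraries drawn independently, which cannot decide between scalings or for a replicate term. Alternatives used DESeq2 1.42.0, limma 3.58.1 (voom, or log2(FPKM + 0.5) and + 0.1), other factors and filters, a replicate term, a threshold of 0.01 and each library left out.

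Coordinates come from a RefSeq table of the same build, strands and overlaps from GENCODE M21. The members and lists were chosen with earlier results of these data known. Named genes are the members, Rap1gds1, the 3 smallest p-values per list, list genes without enough counts and the 3 nearest patterns to Irf5 and Irf7. Others named were chosen after their values were seen. Tmem173 is listed under its older symbol, and Mx1 and Mx2 had no match under the symbols used. Some other genes of the families are not reported here. A planned comparison of protein sequences was not run. Replicates of a group differed by more than sampling noise (chi-square per degree of freedom 1.92 to 3.81).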

Additional observations from a re-analysis of the deposited data

Results flagged for a closer look

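In 84 groups of 4 libraries (each named gene in each group), 3 held a library far from the other 3. By chance the rule used flags about 1 in 20 such groups. None of the 3 flagged groups was in one of the 9 transcription factors. Nmi stood at 9.21 CPM in control replicate 3, against 8.18 to 8.30 CPM in the other controls. Fcer2a stood at 1.42 CPM in control replicate 2 (others 2.29 to 2.42 CPM) and at 0.682 CPM in knockdown replicate 2 (others 1.304 to 1.382 CPM).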

How the results depend on the processing

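Library totals gave 766 genes higher and 1951 lower, FPKM gave 588 higher and 1475 lower (pseudocount 0.1) or 592 and 1481 (0.5), and a threshold of 0.01 gave 825 and 580. In these library-total and FPKM settings 1 member was higher and 1 lower. One member, Irf1, was also called lower with RLE or upper quartile factors, with a mean CPM of at least 5 and in the fit with a replicate block. Leaving out 1 library gave 1033 to 1227 genes higher, 802 to 997 lower, 3 to 4 members higher and 0 to 1 lower. The sign changed for Stat2 (-0.0470 with library totals, -0.0493 and -0.0483 on FPKM with pseudocounts of 0.1 and 0.5, and -0.0123 to 0.0287 with 1 library left out, below 0 without knockdown replicate 4) and for Irf3 (-0.0399 to 0.0247 with 1 library left out, above 0 without control replicate 2 or knockdown replicate 3). None of these values passed, and the cause was not tested. The replicate block gave 1425 genes higher and 1235 lower, 2 members higher and 1 lower. Under it Irf7 was not called (0.14, SE 0.06, edgeR adjusted p = 0.187) and Irf1 was (-0.17, adjusted p = 0.0387). The labels do not say what a shared number means, so the fit reported has no replicate term. Same-numbered libraries correlated at -0.0365 to 0.0828 in their deviations from the group means. For 3 of 4 numbers the best correlation was with the same number, which does not settle whether they are pairs. Irf5 could not be fitted with whole counts only, nor Irf2 with a mean CPM of at least 5. Counts limit Irf2 and Fcer2a, which lay under 3 CPM.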
